A study of Bos taurus with 72 samples.

Results

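Leucine and isoleucine are constitutional isomers, built of the same atoms with the methyl branch of the side chain at a different carbon. The comparison described here asked how far the transcriptomes of bovine mammary epithelial cells (BMECs) differed when a medium without essential amino acids (EAA) was given back one or the other. Its members were fixed by the column names: 6 libraries labelled Leu and 6 labelled Ile, 12 of the 72 in the series. The main comparison used 10 of these, Leu_2 to Leu_6 against Ile_2 to Ile_6, because Leu_1 and Ile_1 were set aside by the rule that defined the comparison, and values with all 12 are given for the counts of differing genes and the named genes. Of the 29550 genes in the table, 12121 had a mean of at least 1 FPKM (fragments per kilobase of transcript, scaled to the number of mapped fragments) over all 72 libraries and were tested.

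All groups were wild-type primary BMECs at passage 6, isolated from mammary tissue of healthy dairy cows, starved of serum overnight and then kept for 6 h in 1 of 12 media. NEG was DMEM-F12 without any EAA. Leu was NEG with L-leucine at 0.45 mmol/L, and Ile was NEG with L-isoleucine at 0.42 mmol/L, so the doses were close but not equal. Val was NEG with L-valine at 0.45 mmol/L, POS was the complete medium, and the other media were NEG with 1 other EAA each at its concentration in POS. Each medium had 6 replicates. The methods call them biological replicates without giving the number of cows or isolates behind them, so p-values measure the spread between these cultures. The labels and the methods name different plates and library kits. Epithelial and fibroblast markers could not be checked, because the table lists genes by Ensembl or assembly identifiers that were not paired with symbols in the sources used here.

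Leucine is the amino acid best known as a signal to mTORC1, the kinase complex that sets the rate of translation, and is sensed in the cytosol by proteins that include Sestrin2. Leucine, isoleucine and valine share their main transporter and the first steps of breakdown, a transamination by BCAT enzymes and an oxidative decarboxylation by the BCKDH complex, after which their routes part. The lactating mammary gland takes up all of them for milk protein and also oxidises part of them. No level of a gene of these pathways is given here, since none could be matched to its identifier.

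Leu_1 and Ile_1 stood apart from the other libraries of their media. Leu_1 had the fewest reads assigned to genes of the 72 libraries, 12006026 against a median of 15865514.5 and a highest total of 18602430. Reads here and below are such reads, recovered from the FPKM. By the study's own counts Leu_1 did not have the fewest clean reads, but a lower mapping efficiency than the other Leu libraries. It had 10495 genes above 0. Ile_1 had 15211 genes above 0 and, over the genes that differed, lay at the level of the Leu libraries, as given below. Whether the library labelled Ile_1 received the medium of its label was not tested, and results that include it are read with that limit. Among the 10 libraries of the main comparison, reads ranged from 14675526 to 16608798 in Leu and from 15260900 to 17083951 in Ile. Leu libraries held 16226 ± 348 genes above 0 (SD, n = 5) and Ile libraries 16890 ± 304 (n = 5), a difference of −664 genes, Leu minus Ile (two-sided exact permutation test, p = 0.024, adjusted p = 0.036 over 3 measures, smallest p possible 0.0079). With every library thinned to 12006026 reads the means were 16027 ± 281 and 16607 ± 243 (exact permutation p = 0.016, adjusted p = 0.036), while the difference in reads did not pass the test (exact permutation p = 0.34). With all 12 libraries the difference in genes above 0 did not pass it either (exact permutation p = 0.16). The number of genes above 0 thus moved with the comparison, and the counts of differing genes with it as a covariate are given below.

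**Figure D1:**
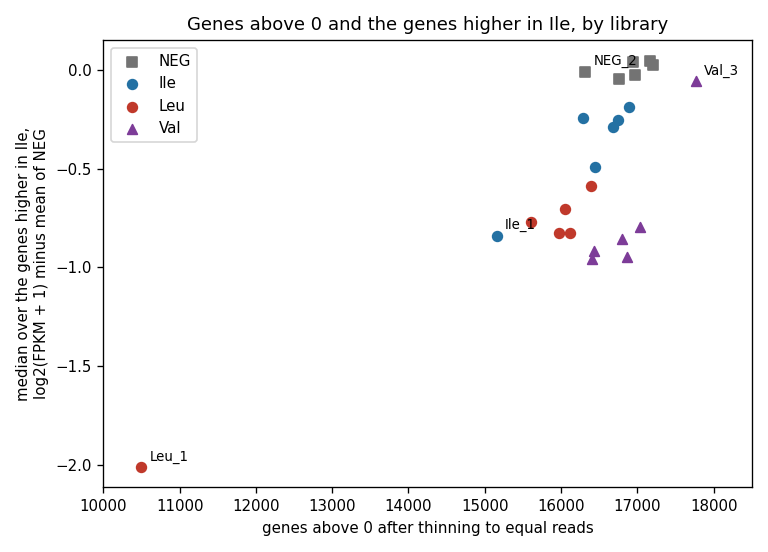
Median level over the 2430 genes higher in Ile, as log2(FPKM + 1) minus the NEG mean, against the genes above 0 in each library after thinning to 12006026 reads, 1 point a library for NEG, Ile, Leu and Val, with NEG_2, Val_3, Leu_1 and Ile_1 named. Leu_2 to Leu_6 lie below Ile_2 to Ile_6 on the level axis and at 15612 to 16389 genes above 0, while 5 of the 6 Val points lie within or below the levels of Leu_2 to Leu_6 at 16399 to 17037 genes.

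Differences between leucine and isoleucine were many and small. In limma on log2(FPKM + 1), 4251 of the 12121 genes had an adjusted p under 0.05, 35.1% of those tested. Of these, 1821 (15.0% of those tested) were higher in Leu and 2430 (20.0%) were higher in Ile. The median difference, Leu minus Ile, was 0.33 on the log2 scale for the genes higher in Leu, with an interquartile range from 0.26 to 0.41, and −0.44 for those higher in Ile, from −0.57 to −0.34. At an unadjusted p under 0.05 there were 5724 genes (47.2%), 2500 higher in Leu (20.6%) and 3224 higher in Ile (26.6%). Of the 4251 genes, 3175 (74.7%) differed by less than 0.5 on the log2 scale. In bulk RNA, fewer cells of a kind and less RNA per cell cannot be told apart.

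Differences of more than 2-fold were rare. By the limits the study used for a differentially expressed gene (DEG), an unadjusted p under 0.05 and a log2 difference over 1 in size, 91 genes (0.751%) differed, 25 (0.206%) higher in Leu and 66 (0.545%) higher in Ile. Of the 91, 83 also passed the adjusted limit (0.685% of those tested). For 11394 genes, 94.0% of those tested, the 95% interval of the difference lay wholly within 1 on the log2 scale in either direction, and for 7193 (59.3%) it lay within 0.5. On this scale a low gene can differ by 2-fold in FPKM within those limits, and with a pseudocount of 0.1 the DEG were 215. The 5 Leu values and the 5 Ile values did not overlap at all for 2022 genes (16.7%), 892 of them higher in Leu (7.36%) and 1130 higher in Ile (9.32%). With all 12 libraries the values did not overlap for 465 genes (3.84%).

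These counts rest on which libraries enter and how they are weighted. With all 12 libraries at equal weight no gene passed the adjusted limit in limma, the lowest adjusted p being 0.073, although 2389 genes (19.7%) had an unadjusted p under 0.05, 1042 higher in Leu (8.6%) and 1347 higher in Ile (11.1%), and limma-voom on the reads recovered from the FPKM also called 0, with 2170 genes at an unadjusted p under 0.05. The DEG then numbered 191 (1.58%), 8 higher in Leu (0.066%) and 183 higher in Ile (1.51%). With all 12 libraries and a weight for each library estimated by limma, 5977 genes passed the adjusted limit, 4192 of them among the 4251, and the DEG were 126. The 12 libraries include the 10 on which the 4251 genes were called, so the directions are largely fixed by that choice, and 4124 of the 4251 kept theirs at equal weight. With only Leu_1 left out, 874 genes passed the adjusted limit, and with only Ile_1 left out, 107. With the number of genes above 0 per library as a covariate in the main comparison, 1 gene passed (limma, adjusted p = 0.048), 1980 had an unadjusted p under 0.05, and the median size of the difference over the 4251 genes was 0.27 instead of 0.38. The DEG were 98 in that fit, of which 34 were among the 91.

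The libraries set aside differed from the rest in different ways. Over the 1821 genes higher in Leu, the median level, as log2(FPKM + 1) minus the NEG mean, was 0.44, 0.55, 0.58, 0.58 and 0.62 in Leu_2 to Leu_6 and 0.18, 0.12, 0.21, 0.18 and 0.39 in Ile_2 to Ile_6. Ile_1 stood at 0.58, among the Leu libraries, and Leu_1 at 0.99, beyond them. Over the 2430 genes higher in Ile, Leu_2 to Leu_6 stood at −0.59, −0.70, −0.77, −0.83 and −0.82, and Ile_2 to Ile_6 at −0.24, −0.19, −0.29, −0.26 and −0.49. Ile_1 was at −0.84 and Leu_1 at −2.01, both below all of Leu_2 to Leu_6. Over the 25 DEG higher in Leu, Leu_1 stood at −1.43, on the other side of NEG from Leu_2 to Leu_6, which ran from 0.41 to 1.07, and Ile_1 at 0.58. These genes were chosen on the 10 libraries of the main comparison, so the gap between those is given as a description, whereas Ile_1 and Leu_1 took no part in the choice. Set against the mean of Leu_2 to Leu_6, Ile_1 differed in the direction of the other Ile libraries for 1911 of the 4251 genes (45.0%, against 45.9% of all genes tested), and Leu_1 against the mean of Ile_2 to Ile_6 differed in the direction of the other Leu libraries for 3630 (85.4%, against 72.8%). Both differences use a mean that took part in the choice of genes, so their directions are partly fixed by it. Only the difference within the pair set aside is free of this. In the pair set aside, Leu_1 minus Ile_1 had the direction of the main comparison for 3200 of the 4251 genes (75.3%, against 65.8%), and for 55 of the 91 DEG (60.4%), 4 of the 25 higher in Leu (16.0%) and 51 of the 66 higher in Ile (77.3%). Over all 12121 genes Leu_1 was the higher of the pair for 4726 and Ile_1 for 7226.

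**Figure D2:**
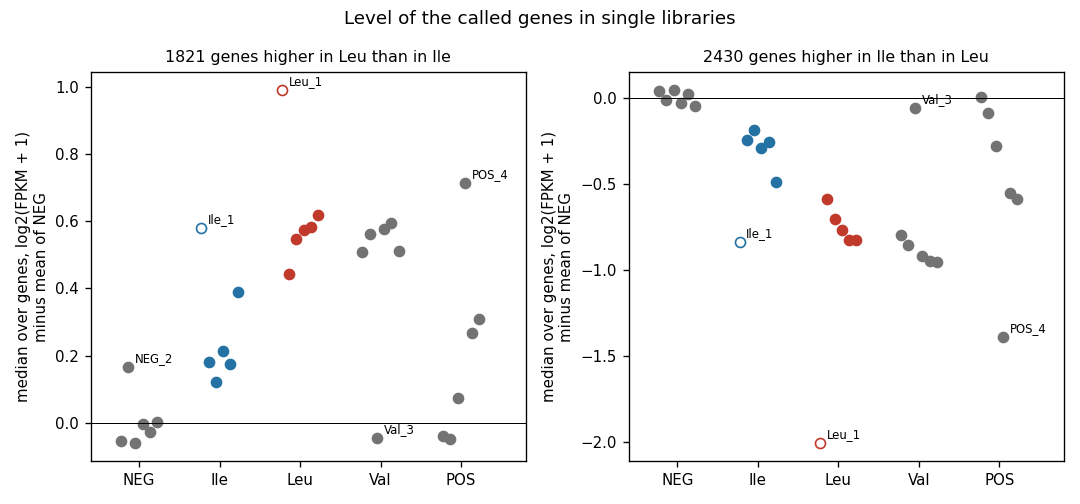
Median level of the 1821 genes higher in Leu and of the 2430 genes higher in Ile in every library of Leu, Ile, Val, POS and NEG, as log2(FPKM + 1) minus the NEG mean, with Leu_1 and Ile_1 hollow. Ile_1 lies at the level of the Leu libraries in both sets, and Val_3 lies near NEG while the other Val libraries lie near Leu.

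Leucine was farther from NEG than isoleucine for most of the differing genes, while the share with both media on the same side of NEG, 84.5%, was close to the 86.8% of all genes tested. The 2 comparisons with NEG share its 6 libraries, so the sides are counts of positions and not independent results. Of the 4251 genes, 2096 (49.3%) had both means below the NEG mean, 1494 (35.1%) had both above it and 661 (15.5%) had the means on opposite sides. Over all 12121 genes these shares were 48.5%, 38.3% and 13.2%. Leucine was the farther from NEG, on the same side, for 3438 of the 4251 genes (80.9%) against 70.2% of all genes tested, and isoleucine for 152 (3.58%) against 16.6%.

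The largest group, 2004 genes (47.1%, against 39.7% of all genes tested), was lower than NEG in both media and lowest in leucine. The median difference from NEG in this group was −0.82 in Leu and −0.37 in Ile on the log2 scale, and 1245 of the 2004 passed the adjusted limit against NEG in both media, as did 2633 of the 4818 genes in this order among all tested. The next, 1434 genes (33.7%, against 30.5%), was higher than NEG in both and highest in leucine, by a median of 0.62 in Leu and 0.28 in Ile, and 762 of these passed against NEG in both media, as did 1533 of 3691 among all tested. Orders with isoleucine outermost were few. In 92 genes (2.16%) both media were below NEG with Ile the lower, and in 60 (1.41%) both were above it with Ile the higher. Against NEG itself, at the adjusted limit of limma, 3138 genes rose (25.9%) and 4516 fell (37.3%) in Leu, while 1791 rose (14.8%) and 3170 fell (26.2%) in Ile. By the DEG limits, 153 genes rose (1.26%) and 832 fell (6.86%) in Leu, and 51 rose (0.421%) and 156 fell (1.29%) in Ile.

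Genes whose Leu and Ile means lay on opposite sides of NEG lay close to it. In 366 genes (8.61% of the 4251) the Leu mean was below and the Ile mean above NEG, by medians of −0.28 and 0.13. In 295 genes (6.94%) the Leu mean was above and the Ile mean below, by medians of 0.23 and −0.09. For 1 of the 366 and 2 of the 295 both differences from NEG passed the adjusted limit, for 401 of the 661 neither did, and for 32 of the 661 the Leu and Ile means lay outside the whole range of the 6 NEG libraries on opposite sides. The split between both below and both above depends on the scale, and with libraries scaled by their total FPKM it was 1392 below, 2003 above and 858 on opposite sides of 4253 genes.

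**Figure D3:**
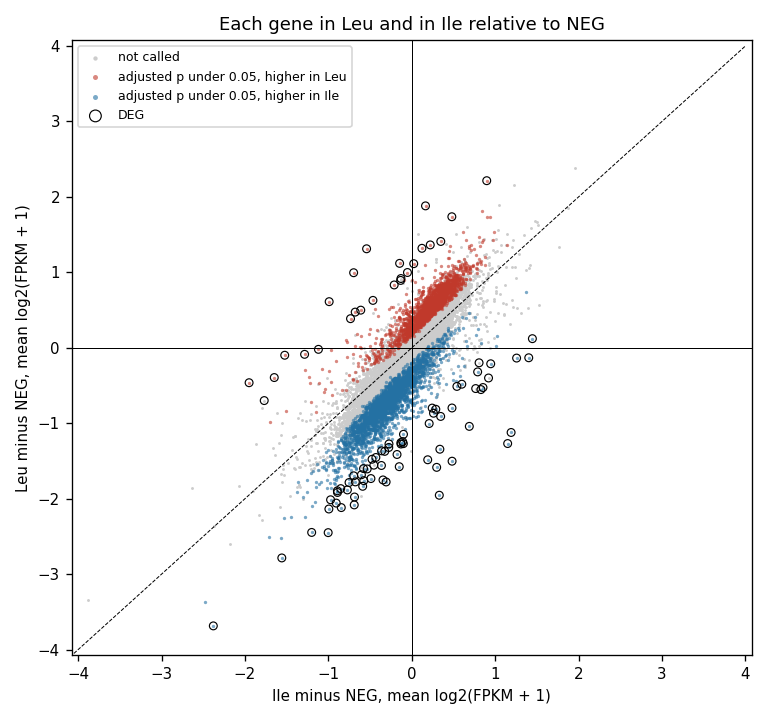
Difference of the Leu mean from NEG (vertical) against that of the Ile mean (horizontal) for each tested gene, in log2(FPKM + 1), with the 4251 genes of adjusted p under 0.05 coloured by the medium in which they were higher, the 91 DEG ringed and a dashed line where Leu and Ile are equal. Most coloured points lie in the lower left and upper right, 2096 and 1494 genes, and farther from 0 along the Leu axis than along the Ile axis.

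Among the 91 DEG, 40 (44.0%) were below NEG in both media with leucine the lower, by medians of −1.74 in Leu and −0.58 in Ile, and 7 (7.69%) were above it in both with leucine the higher. Isoleucine was the lower of 2 means below NEG for 6 (6.59%) and the higher of 2 means above it for 1 (1.1%). In 25 (27.5%) the Leu mean lay below and the Ile mean above NEG, and in 12 (13.2%) the reverse. Opposite sides thus took 37 of the 91 (40.7%), but the means of 3 of these lay outside the range of the NEG libraries in both directions. Over all genes tested, leucine the lower below NEG took 39.7%, leucine the higher above NEG 30.5%, Leu below and Ile above 7.31% and the reverse 5.86%. Isoleucine the lower below NEG took 8.79% of all genes tested, and isoleucine the higher above NEG 7.82%.

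The DEG were mostly short genes with few reads. Their median length was 351 bp and their median depth 24 reads per library, against 2342 bp and 418.5 reads for all genes tested. Genes under 300 bp made up 43 of the 91 DEG (47.3%) and 544 of the 12121 genes (4.49%). All of the 25 DEG higher in Leu and 57 of the 66 higher in Ile were in the shortest of 5 equal length classes, 12 to 1232 bp. Genes of at least 300 bp gave 48 DEG (0.415% of 11577), 6 higher in Leu and 42 higher in Ile, and the Leu and Ile values did not overlap for 37 of them. Of these 48, 38 were below NEG in both media, 2 above it in both and 8 on opposite sides. Genes under 300 bp gave 43 DEG (7.9% of 544) with a median of 5.5 reads per library over that class and overlap of the Leu and Ile values for all but 6. Of these 43, 8 were below NEG in both media, 6 above it and 29 on opposite sides.

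**Figure D4:**
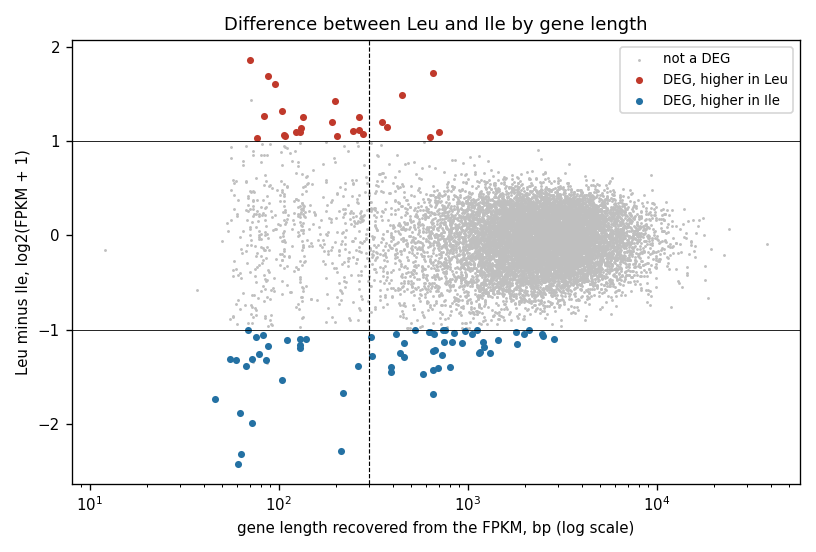
Difference between Leu and Ile in log2(FPKM + 1) for each tested gene against its length in bp on a log scale, with the DEG coloured by the medium in which they were higher, solid lines at 1 and −1 and a dashed line at 300 bp. The spread of the differences is widest among short genes, and 43 of the 91 DEG lie left of the dashed line.

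The share of genes higher in Leu was larger among more highly expressed genes. In 5 equal classes of mean FPKM, from the lowest to the highest, 2.35%, 7.76%, 14.0%, 22.4% and 28.5% of genes passed the adjusted limit with the higher value in Leu, and 11.9%, 21.5%, 23.8%, 21.2% and 21.9% with the higher value in Ile. The genes higher in Leu had a median of 23.8 FPKM and those higher in Ile 12.1 FPKM. Removing a trend on gene length turned the balance, with 2416 genes higher in Leu and 2038 higher in Ile of 4454. It also turned in fits that called fewer genes, to 184 and 161 in 1 fit of all media, 155 and 139 with genes above 0 as a covariate and all 12 libraries, and 54 and 53 with only Ile_1 left out.

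The genes with the largest differences were named by a fixed rule: an adjusted p under 0.05, no overlap between the 5 Leu and the 5 Ile values, and a mean of at least 5 FPKM in the higher medium, which 811 genes higher in Leu and 870 higher in Ile met. The rule used these values and admitted genes through the higher medium alone, so the differences between Leu and Ile and the lack of overlap describe the genes chosen and are not further support. Each of the 4 lost its adjusted call with all 12 libraries at equal weight and with genes above 0 as a covariate in the main comparison, and kept it with estimated library weights. With that covariate and all 12 libraries, ENSBTAG00000053248 lost its call and the others kept theirs. The 2 largest in each direction follow, under their identifiers, since what they encode is not given in the files.

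ENSBTAG00000027213, 654 bp long, read 14.6, 29.0, 20.6, 32.5 and 45.1 FPKM in Leu_2 to Leu_6 and 8.42, 5.38, 10.5, 5.57 and 7.96 FPKM in Ile_2 to Ile_6. NEG ran from 3.98 through a median of 6.12 to 12.2 FPKM. Every Leu value was above every Ile and every NEG value, while Ile and NEG overlapped. Leu minus Ile was 1.72 on the log2 scale (SE 0.26, limma, adjusted p = 0.0017), with means of 28.4 ± 11.7 and 7.57 ± 2.15 FPKM (SD, n = 5 each). Leu exceeded NEG by 1.88 (limma, adjusted p = 0.00013), and Ile minus NEG was 0.17 (adjusted p = 0.61). Ile_1, set aside, read 19.1 FPKM, within the range of Leu, and with all 12 libraries the difference was 1.51 (SE 0.31, limma, adjusted p = 0.13), and with genes above 0 as a covariate 1.33 (adjusted p = 0.14). Val ran from 2.18 to 14.4 FPKM, and His, the medium with histidine, from 12.7 to 43.5.

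ENSBTAG00000052204, 267 bp long, read 8.33, 8.69, 6.81, 7.84 and 15.2 FPKM in Leu_2 to Leu_6 and 2.88, 2.68, 3.65, 4.47 and 2.62 FPKM in Ile_2 to Ile_6. In NEG it ran from 5.27 through a median of 13.9 to 18.3 FPKM. Both media lay below the NEG mean and Ile was the lower, with no value of Ile_2 to Ile_6 in the range of NEG. Leu minus Ile was 1.25 (SE 0.18, limma, adjusted p = 0.0015). Ile fell by 1.65 against NEG (limma, adjusted p = 0.00068), and Leu minus NEG was −0.39 (adjusted p = 0.21). The pair set aside had the opposite order, 3.89 FPKM in Leu_1 and 6.08 FPKM in Ile_1, and with all 12 libraries the difference was 0.96 (limma, adjusted p = 0.16). It was 1.08 with only Ile_1 left out (adjusted p = 0.067) and 1.37 with genes above 0 as a covariate (adjusted p = 0.089). With only Leu_1 left out it was 1.13 (limma, adjusted p = 0.017), and with the covariate and all 12 libraries 1.13 (adjusted p = 0.039). Val was higher than both, from 18.3 to 51.8 FPKM.

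ENSBTAG00000006813, 213 bp long, had a smaller fitted difference than ENSBTAG00000053248, described last, but more reads. It read 15.0, 8.84, 13.0, 9.53 and 2.94 FPKM in Leu_2 to Leu_6 and 76.4, 39.5, 66.5, 29.8 and 37.3 FPKM in Ile_2 to Ile_6, and Leu_1 and Ile_1 lay on the same sides at 0 and 52.8 FPKM. In NEG it ran from 27.5 through 37.4 to 59.5 FPKM, so every Leu value was below every NEG value while Ile and NEG overlapped. Leu minus Ile was −2.28 (SE 0.36, limma, adjusted p = 0.0018), with means of 9.84 ± 4.6 and 49.9 ± 20.3 FPKM (SD, n = 5 each). With all 12 libraries it was −2.86 (limma, adjusted p = 0.13), with only Ile_1 left out −2.83 (adjusted p = 0.062), and with genes above 0 as a covariate −2.33 (adjusted p = 0.12). With only Leu_1 left out it was −2.31 (adjusted p = 0.012), and with the covariate and all 12 libraries −2.19 (adjusted p = 0.028). Leu fell by 1.95 against NEG (limma, adjusted p = 0.00017), and Ile minus NEG was 0.33 (adjusted p = 0.31). In Val the lowest value was 1.12 FPKM and the median 2.46, below each of Leu_2 to Leu_6, but Val_3 read 29.8 FPKM.

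ENSBTAG00000053248, 61 bp long, rested on a handful of reads: 1, 0, 0, 0 and 0 in Leu_2 to Leu_6 and 5, 9, 3, 6 and 4 in Ile_2 to Ile_6. Its FPKM were 5.25, 8.8, 2.82, 6.18 and 4.17 in Ile_2 to Ile_6 and 0.985 in Leu_2. The ratio of Ile to Leu was 26.4, with an exact 95% interval from 4.36 to 1080 that covers counting error only. The fitted difference was −2.42 (SE 0.26, limma, adjusted p = 0.00077), a value that depends on the pseudocount, and was −2.02 with all 12 libraries (adjusted p = 0.13) and −1.88 with genes above 0 as a covariate (adjusted p = 0.078). Ile_1, set aside, had 0 reads, and the 6 NEG libraries had 5, 0, 1, 2, 1 and 5. The NEG mean lay between the media, with Leu minus NEG at −1.27 (limma, adjusted p = 0.02) and Ile minus NEG at 1.15 (adjusted p = 0.049).

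**Figure D5:**
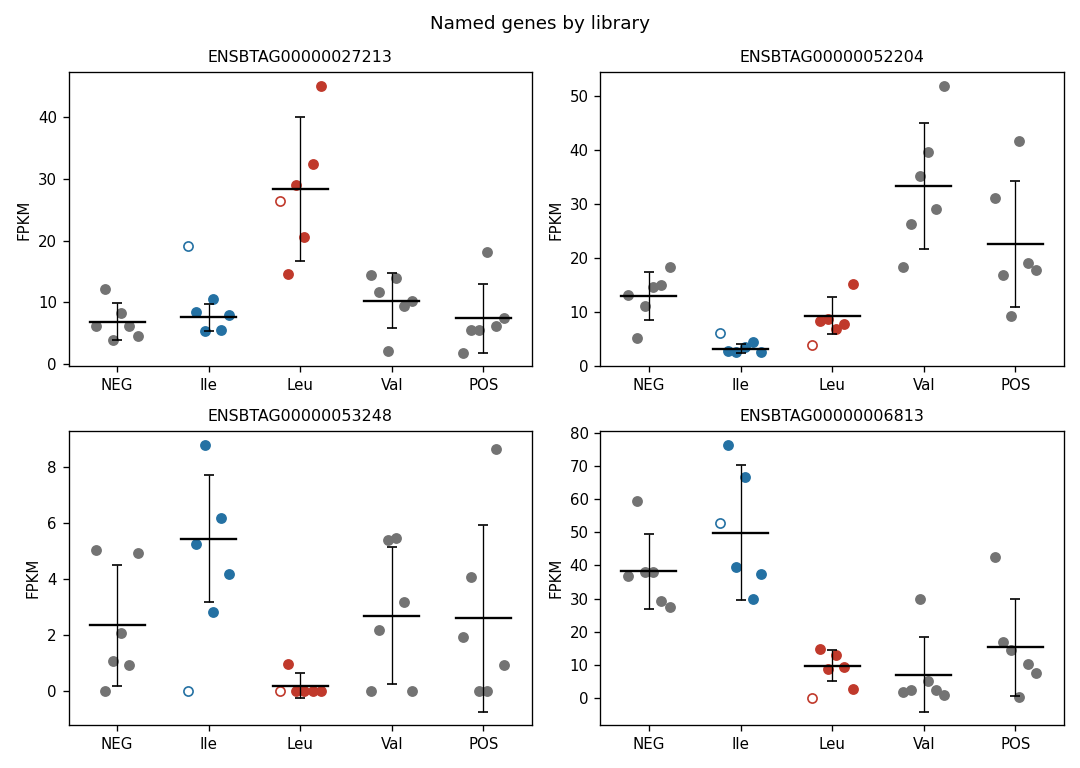
FPKM of the 4 named genes in each library of NEG, Ile, Leu, Val and POS, with a horizontal line at the mean and whiskers of 1 SD over the libraries of the main comparison (n = 5 for Leu and Ile, n = 6 for the others) and Leu_1 and Ile_1 hollow. The solid Leu and Ile points do not overlap, as the choice of these genes required. Ile_1 lies among the Leu values for ENSBTAG00000027213 and ENSBTAG00000053248, and between the solid Ile and Leu points for ENSBTAG00000052204.

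Valine, the remaining branched-chain amino acid, took no part in the choice of genes and lay nearer leucine than isoleucine for most of those called on the 10 libraries. On a line from the Ile mean at 0 to the Leu mean at 1, the Val mean had a median position of 0.88 over the 4251 genes and was nearer Leu for 3047 (71.7%). In 1 fit of all media, which called 345 genes, it was nearer Leu for 158 (45.8%). With all 12 libraries and estimated weights it was nearer Leu for 3511 of 5977 genes (58.7%). In the main comparison it was nearer Leu for 1123 of the 1821 genes higher in Leu (61.7%), for 1924 of the 2430 higher in Ile (79.2%) and for 68 of the 91 DEG (74.7%). No such share was computed over all genes tested, so whether these shares are particular to the called genes was not tested. Tested directly by limma, 718 genes (5.92%) differed between Val and Leu at the adjusted limit and 2048 (16.9%) between Val and Ile, and by the DEG limits 111 (0.916%) and 375 (3.09%). Each of these shares 1 group with the choice of genes or with the other, and whether the 2 counts differ was not tested. Over the 2430 genes higher in Ile, the median level in Val_1 to Val_6 was −0.80, −0.86, −0.06, −0.92, −0.95 and −0.96 against NEG, so that Val_3 stood near NEG and the rest within or below the range of Leu_2 to Leu_6. Apart from Val_3, Val libraries thinned to equal depth had 17037, 16794, 16430, 16861 and 16399 genes above 0, in the range of Ile_2 to Ile_6, from 16281 to 16888, but for Val_1.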

How the data were processed

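RNA-seq was run on BMECs in 12 media, 6 libraries each. The deposited FPKM table was used. Per the labels, the authors' notes name HISAT2 2.0.5, StringTie 1.3.3b, featureCounts 1.5.0-p3 and DESeq2 1.20.0, and the methods name Hisat2, StringTie and DESeq too, but cufflinks and htseq-count for quantification. For the genome build, these sources give none (not given in the sources used here). Groups came from the sample labels. None of 37063 entries of a RefSeq gene table matched an identifier, so planned gene lists and cell type markers were not run, and no sequence is shown.

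Genes with a mean of at least 1 FPKM over 72 libraries were kept. Leu_2 to Leu_6 and Ile_2 to Ile_6 were compared on log2(FPKM + 1) by limma 3.58.1 (R 4.3.3) with a trended prior, no covariate and Benjamini-Hochberg adjustment over all genes tested. Differences are therefore of log2(FPKM + 1) and understate changes of low genes. Each medium was compared with NEG and Val in the same way. Sides of NEG were read from group means without a test. Library measures were compared by two-sided exact permutation tests (scipy 1.17.1). Gene lengths and whole reads were recovered from the steps between low FPKM values. This worked for 23683 genes, with 100.0% of values within 0.001 of a whole read, and the reads were used for depth, thinning and limma-voom as an alternative. Intervals on reads cover counting error only. The scripts were tested on simulated data.

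Named genes were to be the 2 identifiers with the largest difference in each direction if no symbols could be matched. The comparison, the libraries set aside and the rules were chosen with earlier results of these data known. Alternatives covered the libraries used, pseudocount, filter, scaling, gene length, replicate block, count model, 1 fit of all media, library weights with all 12 libraries and leaving out each replicate. Scaling by total reads, leaving out 1 of Leu_1 and Ile_1, voom with all 12 libraries, the filter on genes above 0 and the covariate were chosen after seeing the data.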

Additional observations from a re-analysis of the deposited data

Results flagged for a closer look

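In all, 12 values lay far from the other libraries of their medium by Dixon's test at its 95% level, where 1.6 would be expected by chance over the 32 groups of libraries tested. Leu_1 gave 10495 genes above 0 (next library 15747), a median of 0.99 over the genes higher in Leu (next 0.62) and a median of −2.01 over the genes higher in Ile (next −0.83). Ile_1 gave 15211 genes above 0 (next 16490). Leu_2 read 0.985 FPKM for ENSBTAG00000053248, where all other Leu libraries were at 0.

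Val_3 had 18379953 reads (next 15504263) and 18393 genes above 0 (next 17247). Its medians were −0.0461 over the genes higher in Leu (next 0.51) and −0.0587 over the genes higher in Ile (next −0.80), and it read 29.8 FPKM for ENSBTAG00000006813 (next 5.32). NEG_2 gave a median of 0.17 over the genes higher in Leu (next 0.00315) and 59.5 FPKM for ENSBTAG00000006813 (next 38.1). Leaving out NEG_2 gave 489 instead of 661 genes on opposite sides of NEG.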

How the results depend on the processing

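The counts of differing genes, those on opposite sides of NEG, those with Val nearer Leu and the 4 named genes were recomputed under the alternatives each allowed, and genes above 0 with all 12 libraries, thinned and without each replicate. Overlaps were recomputed with all 12 libraries, and the median size of the difference under each setting. Counts against NEG and Val and the classes of length and FPKM were not. None of the 4 named genes changed its direction, but every fit reused most of the libraries on which they were chosen. In the pair set aside, ENSBTAG00000052204 had the opposite order and ENSBTAG00000053248 had 0 reads in both libraries. Beside the main counts of 91 DEG and 4251 genes of adjusted p under 0.05 (limma), those moved by over 1.5 times were as follows, and the cause was not tested. The DEG numbered 191 with all 12 libraries, 215 with a pseudocount of 0.1, 55 with a mean of at least 5 FPKM, 229 by voom on the recovered reads, 264 by voom with all 12, 246 with only Ile_1 left out and 50 with genes above 0 as a covariate and all 12. Genes of adjusted p under 0.05 numbered 0 with all 12 libraries at equal weight by limma and by voom, but 5977 (with 126 DEG) with all 12 and library weights estimated by limma, 345 in 1 fit of all media, 874 with only Leu_1 left out, 107 with only Ile_1 left out, 1 with genes above 0 as a covariate and 294 with that covariate and all 12. The difference of genes above 0 per library was −1339 with all 12 libraries (exact permutation p = 0.16).

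On opposite sides of NEG there were 105 genes of adjusted p under 0.05 in 1 fit of all media, 119 with only Leu_1 left out, 35 with only Ile_1 left out, 0 with the covariate, 43 with the covariate and all 12 and 32 outside the NEG range, against 661. Of the DEG there were 69 with a pseudocount of 0.1, 15 with at least 5 FPKM, 66 by voom, 56 by voom with all 12, 14 with genes above 0 in all 10 libraries, 24 with only Leu_1 left out, 64 with only Ile_1 left out, 22 with the covariate and all 12 and 3 outside the NEG range, against 37. Val was nearer Leu for 158 of 345 genes in 1 fit of all media, under 50%, and for 576 of 874, 63 of 107, 1 of 1 and 155 of 294 genes with only Leu_1 left out, only Ile_1 left out, the covariate, and the covariate with all 12. For the DEG the numbers were 136 of 191 with all 12, 155 of 215 with a pseudocount of 0.1, 167 of 229 by voom, 132 of 264 by voom with all 12, which is 50.0% and not most, 40 of 64 with only Leu_1 left out, 196 of 246 with only Ile_1 left out and 28 of 50 with the covariate and all 12.

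Leaving out each replicate in turn gave 80 to 132 DEG, 2983 to 5637 genes of adjusted p under 0.05, 453 to 1030 of these and 36 to 50 DEG on opposite sides of NEG, 2120 to 4276 genes and 55 to 103 DEG with Val nearer Leu, and −786.5 to −544.3 genes above 0. The 1030 and the 103 came without Ile_6. Libraries of the same replicate number had correlations of −0.02 to 0.14 over 5 pairs, and 2 of 5 Leu libraries correlated best with their own number. Whether the numbers pair the libraries was not tested. With the replicate block, 90 DEG and 4496 genes of adjusted p under 0.05 were called, and the median SE was 0.091 instead of 0.101. The 4 named genes together fell short of the adjusted limit in 15 alternative fits and passed it in 95. These fits share most of their libraries with the choice of the genes and are not independent. Genes under 300 bp had a median of 5.5 reads per library and a median SE of 0.36, against 453.5 reads and 0.10 for longer genes.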

Other observations

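The other media can be placed on the same line from Ile at 0 to Leu at 1 over the 4251 genes that differed between them, as a description with no test. The histidine medium had a median position of 0.59 and lay nearer Leu for 2510 genes (59.0%), the methionine medium 0.43 with 1825 genes (42.9%), and the complete medium 0.29 with 1795 genes (42.2%). The means of the arginine medium stood at 0.20, tryptophan at 0.17 and lysine at −0.08, and those of phenylalanine at −0.61, threonine at −0.82 and NEG at −0.65 lay beyond Ile. The libraries of several media were spread widely. Over the genes higher in Ile, Arg_1, Arg_2 and Arg_4 had medians of −0.59, −0.59 and −1.17 against NEG and Arg_3, Arg_5 and Arg_6 of −0.06, −0.06 and −0.05, with none in the range of Ile_2 to Ile_6. POS ran from −1.39 to 0.01, Trp from −0.83 to −0.06, Lys from −0.68 to −0.10, Met from −0.77 to −0.19 and His from −0.83 to −0.22.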
